A study of Mus musculus with 16 samples.

Results

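Neutrophils are short-lived white blood cells, and here they were the Ly6G+ cells flow-sorted from the tissue between tendon graft and bone of mice whose anterior cruciate ligament had been reconstructed. The comparison set 2 libraries of day 14 after the operation against 2 libraries of day 1, which are 4 of the 16 bulk RNA-seq libraries of the series. The other 12 libraries come from F4/80- myeloid cells and from CX3CR1+ and CD9+ macrophages of the same 2 days, and serve here to set the error of the test and to show where neutrophils differed. All animals were adult C57BL/6 mice for which the labels name no other treatment. The library titles mark them WT (wild type) on day 1 and W on day 14. All had the operation, and there was no group without surgery, so every value stands for one day after injury against the other. The sort kept live CD45+ cells that were Ly6G+ and Ly6C+ and lacked lineage markers, which according to the methods included B220, CD3e, CD34, c-kit and Ter119. Each library pooled the tissue of several mice, so the spread between libraries of a day is a spread between pools, and fewer cells of a type in a pool cannot be told apart from less RNA per cell.

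Neutrophils are made in the bone marrow, where their granule proteins are transcribed in waves, first those of the primary granules (myeloperoxidase, elastase), then those of the secondary granules (lactoferrin, lipocalin, cathelicidin), and last those of the tertiary granules (gelatinase). After release into the blood they are among the first cells to enter a wound, where sensing of damaged tissue through pattern recognition receptors switches on NF-κB and with it chemokines that recruit further neutrophils and monocytes. Their energy comes largely from glycolysis, and the transcription factor HIF-1 raises glycolytic and other genes where oxygen is low. The question set by the 2 days is how the neutrophils of the freshly operated joint differ in their transcripts from those found there on day 14.

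Markers of neutrophils were high on both days. S100a8, a subunit of calprotectin, had 12620.2 and 7510.0 CPM on day 1 and 13665 and 14759 CPM on day 14, and Csf3r, the receptor for G-CSF, had 3636 and 3807 CPM on day 1 and 2372 and 2403 CPM on day 14. Of the genes for the sorted antigens, Ptprc (CD45) had 2449 and 2103 CPM on day 1 and 2544 and 2509 CPM on day 14. Itgam (CD11b) had 948 and 704 CPM on day 1 and 899 and 877 CPM on day 14, and Ly6c2, one of the genes of the Ly6C antigen, had 350.1 and 195 CPM on day 1 and 348 and 375 CPM on day 14. For Itgam and Ly6c2 the days overlapped, and none of these 3 genes was called. Ly6g itself had 125 and 81.7 CPM on day 1 and 267 and 286 CPM on day 14, so both libraries of day 14 lay above both of day 1 (log2 fold change 1.42 ± 0.32, adjusted p = 0.00357). Here CPM are counts scaled to the library total with TMM factors, the fold change is day 14 over day 1 on the log2 scale with its standard error, and p is from edgeR's quasi-likelihood test, adjusted over all genes tested by Benjamini and Hochberg. Of the 15 tested identity markers, Ly6g was called higher, Clec5a, a myeloid lectin receptor, was called lower (log2 fold change -1.13 ± 0.17, adjusted p = 0.000131) and 13 were not called (without library 1 of day 1, 4 were higher). Ly6g had at most 10.1 CPM in the 12 libraries of the other populations.

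Total counts lay between 10661077 and 17789819 in the 4 neutrophil libraries. Reads of mitochondrial genes made up 6.51% and 4.88% of the counts on day 1 and 3.88% and 4.32% on day 14. Pearson's r of log2 CPM was 0.976 between the 2 libraries of day 1 and 0.985 between those of day 14. The 2 libraries of day 1 stood further apart. Most chemokine, cytokine, NF-κB and AP-1 genes described below were more abundant in library 2. Most granule, cell cycle and interferon-stimulated genes were more abundant in library 1, with 4 of 44 interferon-stimulated genes above in library 2. Sensors of microbes and damage were split, with 16 of 30 above in library 2. Cebpb, a transcription factor of emergency granulopoiesis, differed most among the 23 transcription factors listed, with 214 and 2502 CPM in libraries 1 and 2 of day 1 and 1532 and 1410.2 CPM on day 14. In most NF-κB and secondary granule genes the 2 libraries of day 14 lay closer together, as the plot of the spread between libraries shows. This did not hold for every gene, as Elane had 26.9 and 11.8 CPM on day 14.

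**Figure D1:**
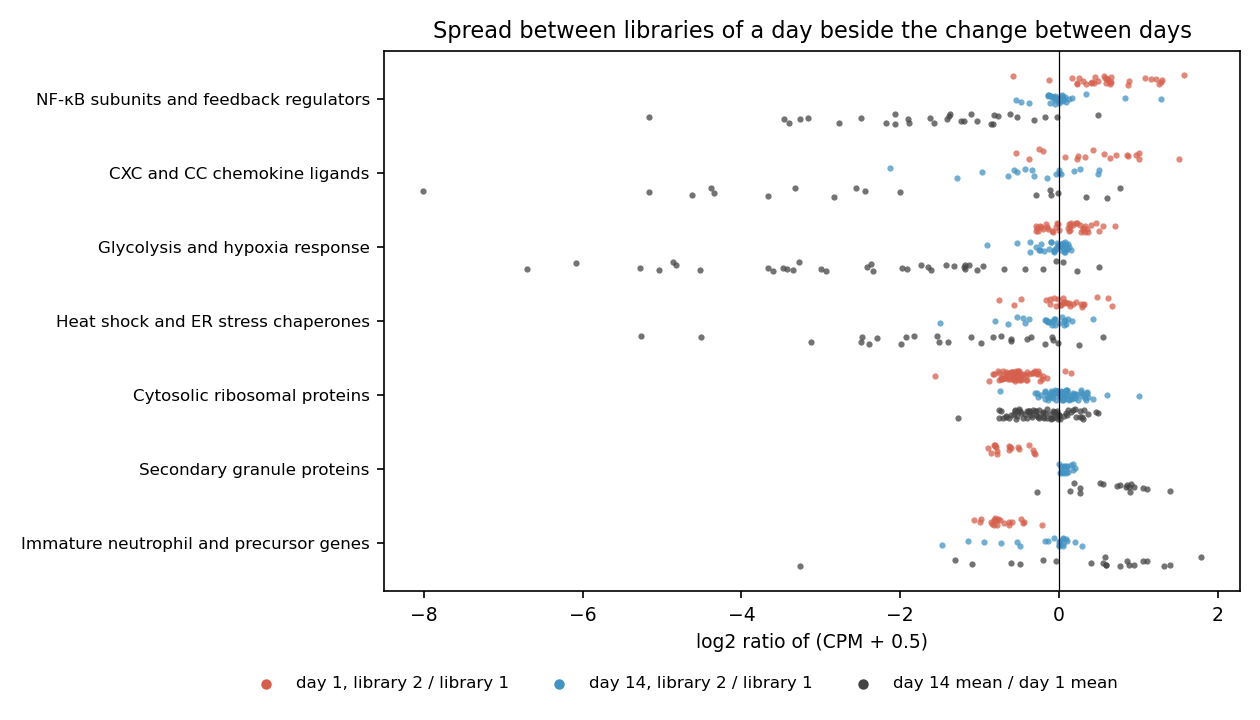
Log2 ratios of CPM (with 0.5 added) for the members of 7 gene lists, each point 1 gene: library 2 over library 1 within day 1 (red), the same within day 14 (blue), and the mean of day 14 over the mean of day 1 (black). Within day 1, 29 of 31 NF-κB genes were higher in library 2 and all 18 secondary granule genes were higher in library 1. Within day 14 most points of these lists lie near 0. Some members of other lists lie further out, such as Ctsg with 3.73 and 1.03 CPM on day 14.

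Of the 11998 genes tested, 1689 (14.1%) were called between the days when an adjusted p under 0.05 and a change of 1 or more on the log2 scale, in either direction, were required together. Lower on day 14 were 1311 (10.9% of those tested), and higher were 378 (3.15%). The median log2 fold change over all genes tested was -0.015, or -0.00052 with the 564 genes that had few or no reads on one day set to the bound a floor of 3 counts per library allows. Transcripts of chemokines, cytokines, NF-κB regulators, hypoxia and glycolysis genes and ER chaperones lay among the decreases, and transcripts of some granule and precursor genes and of histones among the increases.

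**Figure D2:**
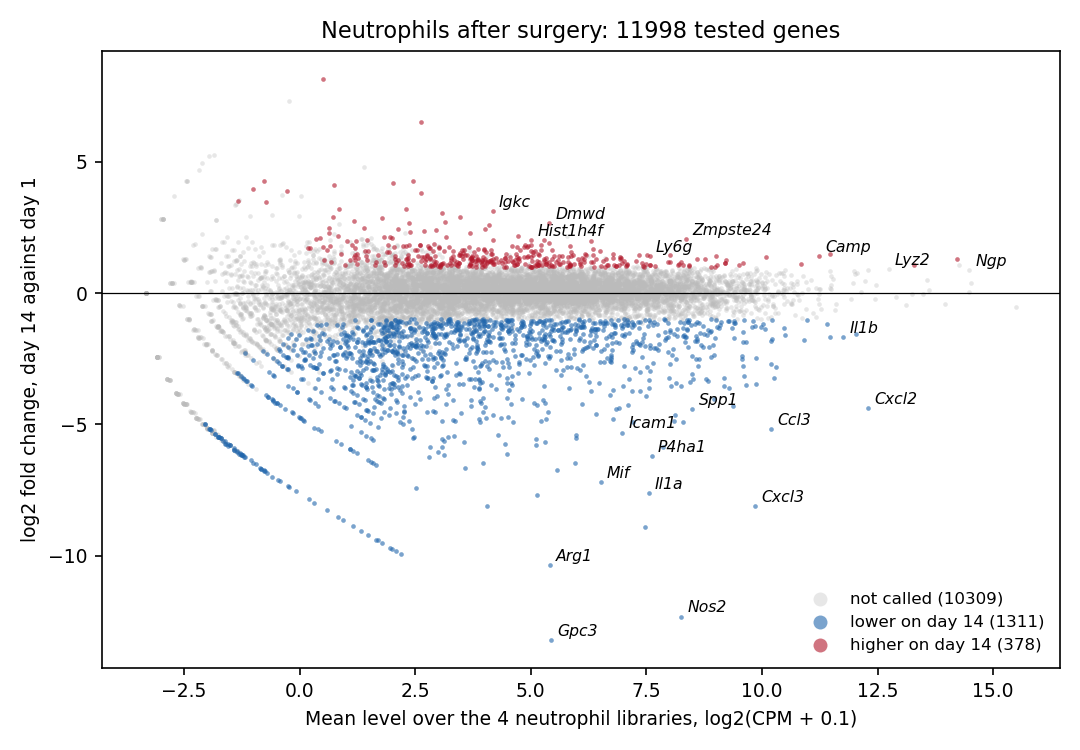
Log2 fold change of each tested gene between day 14 and day 1 in neutrophils (vertical axis) against its mean level over the 4 libraries, log2(CPM + 0.1) (horizontal axis). Blue points are the 1311 genes called lower on day 14, red points the 378 called higher and grey points the rest; streaks of points at the left are genes with few counts or none on day 14.

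**Figure D3:**
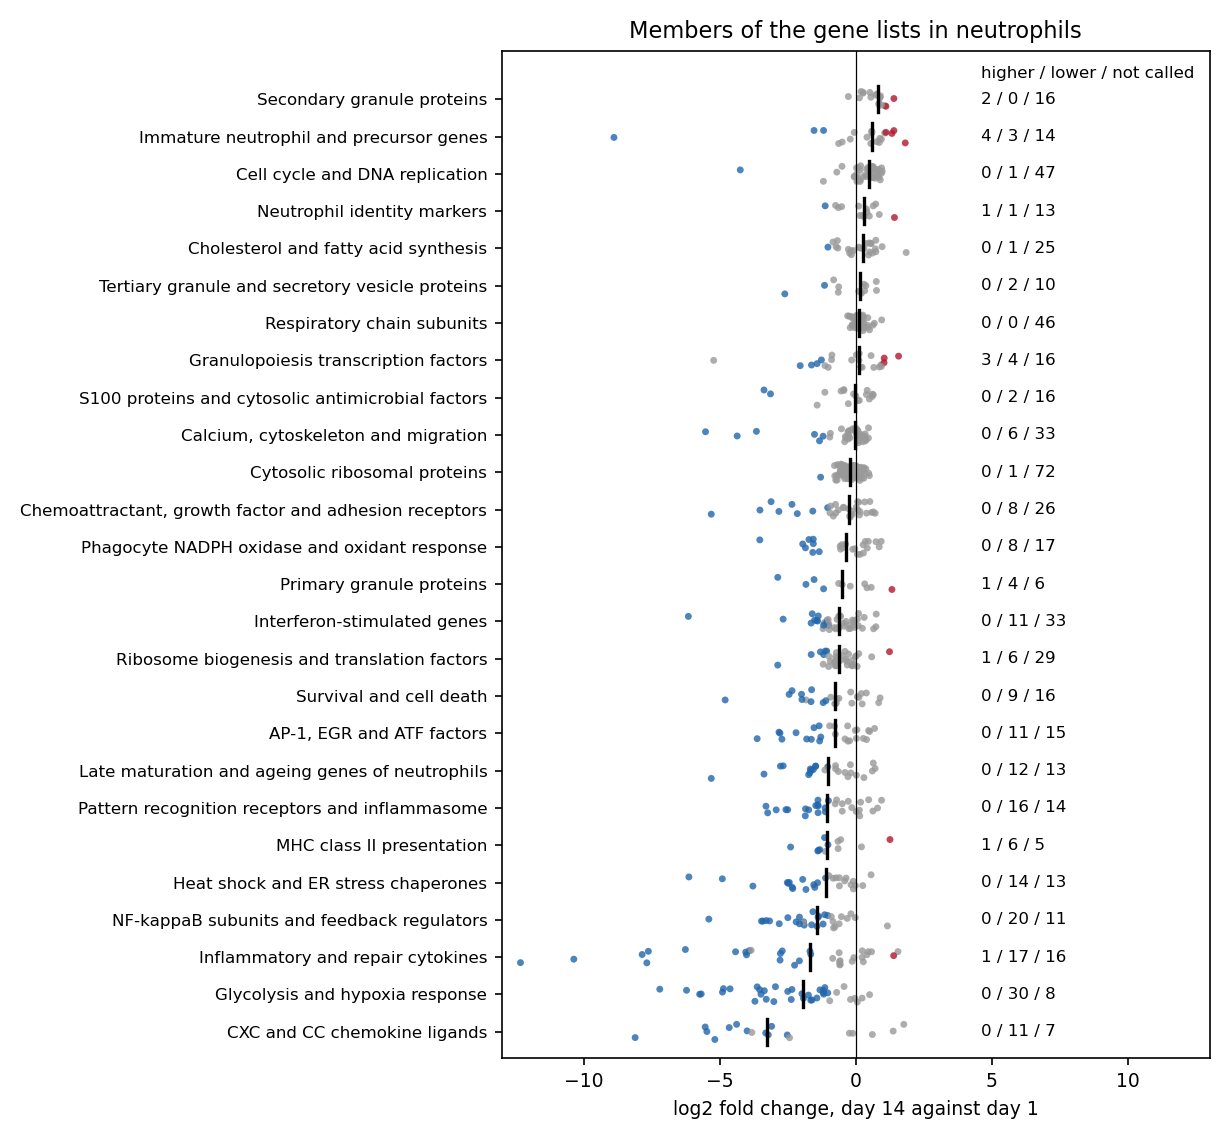
Log2 fold changes of the members of 26 gene lists, 1 point per tested gene, with blue for lower on day 14, red for higher and grey for not called, and a black bar at the list's median. The numbers at the right count members higher, lower and not called; the medians run from -3.26 for chemokine ligands to 0.81 for secondary granule proteins.

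Among the 12 largest decreases of well-expressed genes with days that did not overlap were 6 genes with a known part in inflammation, namely Nos2, Arg1, Cxcl3, Il23a, Il1a and Mif. Nos2, the inducible nitric oxide synthase, had 548 and 676 CPM on day 1 and 0 and 0.206 CPM on day 14. Both libraries of day 14 were near 0, with 2 reads in all against 15017 on day 1, a ratio of 5472 with a 95% counting interval from 1514 to 45185 that covers counting error only. Arg1, the arginase that competes with Nos2 for arginine, had 87.4 and 82.3 CPM on day 1 and 0.120 and 0 CPM on day 14. Its 2103 reads of day 1 faced 1 read on day 14, a ratio of 1533 (counting interval 275 to 60559). Both enzymes were therefore detected in each library of day 1 and close to the limit of detection on day 14. Gpc3, the cell surface proteoglycan glypican-3, had 98.8 and 73.03 CPM on day 1 and no read on day 14, which makes it at least 256-fold lower against a floor of 3 counts per library. Il23a, the p19 subunit of interleukin-23, had 39.4 and 101 CPM on day 1 and 0.361 and 0.309 CPM on day 14. With 3 reads in each library of day 14, its ratio was 203 (counting interval 93.2 to 554).

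Mif, macrophage migration inhibitory factor, had 175 and 189 CPM on day 1 and 1.57 and 0.926 CPM on day 14 (log2 fold change -7.20 ± 0.35, adjusted p = 2.79e-09); it has many processed pseudogenes, between which reads can be split. The remaining 5 genes of this set were Gm10800, Gm10801 and Gm21738, which are short predicted genes, the long noncoding RNA Gm19510, and Fam71f2. Gm10800 had 666 and 43.7 CPM in libraries 1 and 2 of day 1, a 15.2-fold difference between pools of the same day, and 0.843 and 0.617 CPM on day 14. The calls of all 3 predicted genes were lost without library 1 of day 1, at log2 fold changes of -5.90, -4.12 and -5.12, and without either library of day 14.

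Chemokine ligands, the secreted signals that bring neutrophils and monocytes into tissue, had the most negative median of the lists and no called increase. Of 18 tested, 11 were lower on day 14 (5 where a mean of 3 CPM was required on both days), against 10.9% lower among all genes, and their median log2 fold change was -3.26. Cxcl2, a ligand of the neutrophil receptor CXCR2, had 6783 and 12316 CPM on day 1 and 466 and 452 CPM on day 14 (log2 fold change -4.38 ± 0.36, adjusted p = 4.61e-07). Cxcl3, another CXCR2 ligand, had 1235 and 2428 CPM on day 1 and 6.14 and 7.10 CPM on day 14 (log2 fold change -8.11 ± 0.52, adjusted p = 4.01e-08). Cxcl1 had 8.999 and 26.6 CPM on day 1 and 0.602 and 0.206 CPM on day 14 (log2 fold change -5.47 ± 0.85, adjusted p = 0.000267). In all 3 CXCR2 ligands the libraries of day 14 lay far below those of day 1, and library 2 of day 1 was the highest. Ccl3, which attracts monocytes and macrophages, had 1509.8 and 3037 CPM on day 1 and 66.1 and 59.5 CPM on day 14 (log2 fold change -5.18 ± 0.29, adjusted p = 9.95e-09). Ccl4, a related CC chemokine, had 378 and 692 CPM on day 1 and 23.7 and 18.9 CPM on day 14 (log2 fold change -4.65 ± 0.31, adjusted p = 5.19e-08). For Ccl3 and Ccl4, too, library 2 of day 1 was the highest and the days did not overlap. Ccl2, the ligand of the monocyte receptor CCR2, had 26.997 and 31.9 CPM on day 1 and 2.29 and 1.44 CPM on day 14 (log2 fold change -3.99 ± 0.30, adjusted p = 1.7e-07). Ccl6, a CC chemokine of mouse myeloid cells, was not called, with 928 and 778 CPM on day 1 and 1288 and 1309 CPM on day 14 (log2 fold change 0.61 ± 0.24, adjusted p = 0.0779).

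Promoters of 3 CXC ligands, Cxcl1, Cxcl2 and Cxcl3, hold letters of the NF-κB motif. Promoter sequences were taken from RefSeq (GRCm38.p6, the assembly of mm10, the build of the counts) as the 250 bases before the RefSeq start, and matched by symbol to 8851 of the tested genes, 88.3% of which had that start within 500 bases of the deposited one. On either strand, the motif GGGNNTTTCC stood in 4 of 12 chemokine promoters (Cxcl1, Cxcl2, Cxcl3 and Ccl9), in 4 of 26 promoters of the NF-κB list (Nfkb2, Rel, Nfkbia and Tnfaip3) and in 1.47% of all 8851. With the motif, 4 of 4 chemokines were lower on day 14, and without it, 3 of 8. In the NF-κB list 3 of 4 with the motif were lower (Rel was not called, except without library 1 of day 1), and 14 of 22 without it. A match of letters is a description of the sequence and shows no binding. Those of Cxcl1, Cxcl3 and Nfkb2 are printed because their transcripts fell together, 5′ to 3′ on the strand of the gene and ending at the base before the start, with the motif in capitals. They are Cxcl1 at chr5:90890995-90891244 (plus strand), Cxcl3 at chr5:90785851-90786100 (plus strand) and Nfkb2 at chr19:46304487-46304736 (plus strand):
Cxcl1: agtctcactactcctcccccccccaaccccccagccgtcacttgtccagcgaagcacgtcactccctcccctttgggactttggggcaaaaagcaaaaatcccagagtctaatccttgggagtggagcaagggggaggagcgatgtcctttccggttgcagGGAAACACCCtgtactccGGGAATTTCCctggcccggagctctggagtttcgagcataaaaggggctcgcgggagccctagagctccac
Cxcl3: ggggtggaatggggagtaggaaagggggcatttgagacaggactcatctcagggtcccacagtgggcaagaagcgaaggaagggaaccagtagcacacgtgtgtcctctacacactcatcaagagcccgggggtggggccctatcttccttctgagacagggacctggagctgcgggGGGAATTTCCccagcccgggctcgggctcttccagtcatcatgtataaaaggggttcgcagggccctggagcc
Nfkb2: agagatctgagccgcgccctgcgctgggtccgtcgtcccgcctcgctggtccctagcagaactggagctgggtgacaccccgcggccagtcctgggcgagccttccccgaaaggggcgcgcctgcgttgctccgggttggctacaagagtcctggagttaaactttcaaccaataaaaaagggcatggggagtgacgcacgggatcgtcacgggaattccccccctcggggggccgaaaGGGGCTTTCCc
In Cxcl1 a second match, in the reverse orientation, lies 89 to 80 bases before the start, upstream of the match at 71 to 62. Cxcl3 holds the same 10 letters as this match of Cxcl1, at 73 to 64 bases before its start.

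Cytokines and mediators were lower too, though not as a whole. Of 34 tested, 17 were lower on day 14 and 1 was higher (median -1.67), against 10.9% and 3.15% of all genes. Where a mean of 3 CPM was required on both days, which leaves out genes that had fallen to near 0, 8 were called lower. Il1a, an alarmin of the interleukin-1 family, had 202 and 542 CPM on day 1 and 1.57 and 2.16 CPM on day 14 (log2 fold change -7.62 ± 0.58, adjusted p = 2.25e-07). Il1b, whose product is released after inflammasome activation, had 4363 and 6166 CPM on day 1 and 1623 and 1653 CPM on day 14 (log2 fold change -1.68 ± 0.18, adjusted p = 6.45e-06). Tnf had 451 and 922 CPM on day 1 and 99.7 and 101 CPM on day 14 (log2 fold change -2.77 ± 0.24, adjusted p = 7.12e-07), and library 2 of day 1 was the highest of the 4 libraries for these 3 genes. Csf1, the growth factor of macrophages, had 688 and 1192 CPM on day 1 and 56.6 and 57.3 CPM on day 14 (log2 fold change -4.04 ± 0.23, adjusted p = 1.61e-08). Spp1, osteopontin, a matrix protein of bone and wounds, had 618 and 760.3 CPM on day 1 and 31.4 and 33.03 CPM on day 14 (log2 fold change -4.42 ± 0.26, adjusted p = 1.76e-08). The antagonist of the interleukin-1 receptor, Il1rn, had 1528 and 2544 CPM on day 1 and 311 and 315 CPM on day 14 (log2 fold change -2.70 ± 0.25, adjusted p = 1.18e-06). For each of them the libraries of the 2 days were well apart.

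Some mediators were not called between the days. Osm, oncostatin M, had 639 and 621 CPM on day 1 and 813 and 712 CPM on day 14 (log2 fold change 0.28 ± 0.16, adjusted p = 0.224). Thbs1, thrombospondin-1, had 7032 and 8893 CPM on day 1 and 7622 and 6899 CPM on day 14, and its days overlapped. Ptgs2, the inducible cyclooxygenase, had 849.6 and 1496 CPM on day 1 and 778 and 756 CPM on day 14, and day 14 lay below day 1 by less than the fold threshold (log2 fold change -0.61 ± 0.25, adjusted p = 0.0819). Tnfsf13b, the B cell survival factor BAFF, was the member that rose, with 33.3 and 28.2 CPM on day 1 and 79.6 and 81.6 CPM on day 14 (log2 fold change 1.39 ± 0.22, adjusted p = 0.000291).

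Regulators of NF-κB, most of them targets of the pathway that feed back on it, were lower in most cases. Of 31 tested, 20 were lower and none was higher (median -1.42, against 10.9% lower among all genes). Nfkbia, the inhibitor IκBα, had 1095 and 2325 CPM on day 1 and 148 and 162 CPM on day 14 (log2 fold change -3.46 ± 0.28, adjusted p = 4.1e-07). Tnfaip3, the ubiquitin-editing inhibitor A20, had 823 and 1977 CPM on day 1 and 159 and 153 CPM on day 14 (log2 fold change -3.17 ± 0.28, adjusted p = 9.57e-07). Traf1, an adaptor of TNF receptors, had 61.6 and 184 CPM on day 1 and 3.49 and 2.37 CPM on day 14 (log2 fold change -5.40 ± 0.49, adjusted p = 1.18e-06). Library 2 of day 1 exceeded library 1 by 2.12, 2.40 and 2.99 times in these genes, and both exceeded both libraries of day 14. Without library 1 of day 1, 23 members were lower, and without library 2, 16. Of the subunits, Nfkb2 and Relb were called lower (-1.90 ± 0.26 and -2.81 ± 0.27, adjusted p = 7.5e-05 and 2.06e-06). Rela had 223 and 261 CPM on day 1 and 129 and 145 CPM on day 14 (log2 fold change -0.82 ± 0.15, adjusted p = 0.00082). Nfkb1 had 253 and 342 CPM on day 1 and 203 and 208 CPM on day 14 (log2 fold change -0.53 ± 0.15, adjusted p = 0.0137), so that both subunits had an adjusted p under 0.05 and a fold change under the threshold. Icam1, the adhesion molecule and NF-κB target, had 193 and 300.4 CPM on day 1 and 5.90 and 6.48 CPM on day 14 (log2 fold change -5.31 ± 0.25, adjusted p = 2.79e-09).

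Immediate early genes gave both signs. Of 26 AP-1, EGR and ATF genes, 11 were lower, against 10.9% of all genes, and none was higher (1 without library 2 of day 1). Jun had 2114 and 2317 CPM on day 1 and 370.1 and 256 CPM on day 14 (log2 fold change -2.82 ± 0.21, adjusted p = 2.04e-07). Egr1 had 2235 and 3737 CPM on day 1 and 914 and 794 CPM on day 14 (log2 fold change -1.81 ± 0.21, adjusted p = 1.82e-05). Fos, the partner of Jun in AP-1, had 1952 and 1581 CPM on day 1 and 2530.3 and 2485 CPM on day 14, and day 14 lay above day 1 by less than the threshold (log2 fold change 0.51 ± 0.15, adjusted p = 0.0227). Nr4a1, an orphan nuclear receptor, had 528 and 592 CPM on day 1 and 875 and 930.4 CPM on day 14 (log2 fold change 0.69 ± 0.13, adjusted p = 0.00106), likewise above on day 14 and under the threshold.

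Sensors of microbes and damage were lower in 16 of 30 cases, against 10.9% of all genes (median -1.06). Cd14, the co-receptor of TLR4, had 2030.1 and 2415 CPM on day 1 and 245 and 226 CPM on day 14 (log2 fold change -3.24 ± 0.21, adjusted p = 4.01e-08). Tlr4 had 123 and 131 CPM on day 1 and 48.9 and 48.6 CPM on day 14 (log2 fold change -1.38 ± 0.16, adjusted p = 1.58e-05). Nlrp3, the inflammasome sensor that leads to release of interleukin-1β, had 852 and 1574 CPM on day 1 and 359.8 and 314 CPM on day 14 (log2 fold change -1.85 ± 0.27, adjusted p = 0.000139). The days were apart in all 3. Clec7a (dectin-1), a receptor for fungal glucans, had 516 and 511 CPM on day 1 and 576 and 559 CPM on day 14. Gsdmd, the pore former of pyroptosis, had 112 and 98.2 CPM on day 1 and 119 and 117 CPM on day 14, and neither was called.

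Hypoxia and glycolysis formed the list with the highest share of decreases. Of 38 members tested, 30 were lower on day 14, against 10.9% of all genes, 8 were not called and none was higher. The median log2 fold change was -1.95. Leaving out any 1 neutrophil library gave between 29 and 31 lower members. P4ha1, a collagen prolyl hydroxylase subunit induced by HIF-1, had 346 and 426 CPM on day 1 and 5.66 and 4.73 CPM on day 14 (log2 fold change -6.22 ± 0.24, adjusted p = 3.25e-10). Pdk1, the kinase that shuts pyruvate out of mitochondria, had 68.7 and 86.2 CPM on day 1 and 1.69 and 1.34 CPM on day 14 (log2 fold change -5.68 ± 0.31, adjusted p = 9.24e-09). In both, the day 14 libraries held a small remainder of the day 1 level. Bnip3, a mitophagy receptor, had 526 and 527 CPM on day 1 and 17.9 and 18.2 CPM on day 14 (log2 fold change -4.86 ± 0.15, adjusted p = 4.32e-11). Egln3, a prolyl hydroxylase that marks HIF for degradation and is itself a HIF target, had 544 and 671 CPM on day 1 and 19.5 and 21.2 CPM on day 14 (log2 fold change -4.90 ± 0.24, adjusted p = 4.34e-09). In each of the 4 the days were far apart, and the 2 libraries of day 1 lay close together.

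Glucose uptake and the enzymes of glycolysis were part of this list. Slc2a1, the glucose transporter GLUT1, had 621 and 704 CPM on day 1 and 73.1 and 62.4 CPM on day 14 (log2 fold change -3.29 ± 0.27, adjusted p = 4.39e-07). Hk2, an inducible hexokinase, had 644 and 747 CPM on day 1 and 255 and 261 CPM on day 14 (log2 fold change -1.43 ± 0.18, adjusted p = 2.97e-05). Ldha, a subunit of lactate dehydrogenase, had 993 and 892 CPM on day 1 and 409 and 448 CPM on day 14 (log2 fold change -1.14 ± 0.15, adjusted p = 5.64e-05). All 3 were lower in both libraries of day 14. Pgk1 and Pgam1, enzymes further down the chain, also had an adjusted p under 0.05, at 5.29e-05 and 0.0405, with log2 fold changes of -0.96 ± 0.13 and -0.70 ± 0.24 that missed the threshold (Pgk1 passed it, at -1.04, without library 2 of day 1). Slc2a3, the glucose transporter GLUT3, had 1796 and 1707 CPM on day 1 and 1764 and 1650.5 CPM on day 14. Hk3, the hexokinase typical of myeloid cells, had 621 and 517 CPM on day 1 and 804 and 811 CPM on day 14 (log2 fold change 0.51 ± 0.15, adjusted p = 0.0208), and neither passed both thresholds. Hif1a itself had 514 and 677 CPM on day 1 and 196 and 161 CPM on day 14 (log2 fold change -1.74 ± 0.15, adjusted p = 5.48e-07). Respiratory chain genes encoded in the nucleus had none of these decreases, and those of the mitochondrial genome were not in the list. Of 46 nuclear-encoded subunits, none was called, the median log2 fold change was 0.12, and all 3 with an adjusted p under 0.05 lay higher on day 14.

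The letters ACGTG, the core of the hypoxia response element, stood in 15 of 34 promoters of this list on either strand (44.1%) and in 22.3% of all 8851. Of the 15 genes with a match, 11 were lower on day 14, and of the 19 without one, 16 were. The promoters of Hk2 at chr6:82774455-82774704 (minus strand) and of P4ha1 at chr10:59323046-59323295 (plus strand) are given as examples of a moderate and a large decrease, with these letters or their reverse complement in capitals:
Hk2: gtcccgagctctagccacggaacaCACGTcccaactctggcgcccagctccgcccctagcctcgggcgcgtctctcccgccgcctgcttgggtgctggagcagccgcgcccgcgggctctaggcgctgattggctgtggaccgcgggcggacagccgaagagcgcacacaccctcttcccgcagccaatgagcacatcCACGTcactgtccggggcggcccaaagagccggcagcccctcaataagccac
P4ha1: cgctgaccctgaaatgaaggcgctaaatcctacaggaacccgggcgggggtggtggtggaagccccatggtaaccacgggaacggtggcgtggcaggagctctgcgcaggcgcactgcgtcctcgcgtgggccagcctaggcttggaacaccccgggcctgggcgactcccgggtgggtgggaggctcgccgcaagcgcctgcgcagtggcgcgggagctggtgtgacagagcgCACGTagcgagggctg
Hk2 has 2 matches, and the single match of P4ha1 ends 12 bases before the start.

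Chaperones of the endoplasmic reticulum (ER), which fold secreted and membrane proteins, were among the decreases. Of the chaperone list's 27 tested members, 14 were lower on day 14, against 10.9% of all genes, and none was higher (median -1.11). Hspa5 (BiP), the main chaperone of the ER, had 1414 and 1757 CPM on day 1 and 284 and 284 CPM on day 14 (log2 fold change -2.48 ± 0.17, adjusted p = 9.19e-08). Pdia6, a disulfide isomerase of the ER, had 167 and 193 CPM on day 1 and 30.7 and 32.2 CPM on day 14 (log2 fold change -2.52 ± 0.16, adjusted p = 4.09e-08). These 2 genes fell by nearly the same factor. Creld2, a secreted ER stress protein, had 42.7 and 68.2 CPM on day 1 and 8.55 and 11.7 CPM on day 14 (log2 fold change -2.44 ± 0.24, adjusted p = 2.85e-06). Calr (calreticulin) had 599.9 and 609 CPM on day 1 and 163 and 177 CPM on day 14 (log2 fold change -1.83 ± 0.15, adjusted p = 5.48e-07). Of the cytosolic heat shock proteins, Hspa1a had 39.2 and 48.5 CPM on day 1 and 1.20 and 0.103 CPM on day 14 (log2 fold change -6.13 ± 0.71, adjusted p = 1.39e-05), but it shares nearly all of its sequence with Hspa1b, which had 47.3 and 47.05 CPM on day 1 and 2.17 and 1.03 CPM on day 14, and reads cannot be assigned to one of them with certainty. The constitutive cytosolic chaperones Hspa8 and Hsp90ab1 were not called. Hspa8 had 535 and 361 CPM on day 1 and 408 and 386 CPM on day 14, and Hsp90ab1 had 692 and 498 CPM on day 1 and 569.7 and 549 CPM on day 14.

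A long composite motif was found in promoters of ER members. The letters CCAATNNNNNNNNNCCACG, the ER stress response element, stood on either strand in 6 of 22 promoters of the list and in 13 of all 8851 (0.147%). All 6 genes (Hspa5, Hsp90b1, Pdia6, Calr, Canx and Creld2) were lower on day 14, as were 6 of the 16 members without it. Of the 6, those of Calr at chr8:84846932-84847181 (minus strand) and Creld2 at chr15:88819396-88819645 (plus strand) are shown with the 19 bases of the match in capitals, together with Hspa1a at chr17:34972157-34972406 (minus strand), where the capitals mark GAANNTTC, a pair of heat shock element units that stood in 3 of 22 promoters of the list and 4.98% of all:
Calr: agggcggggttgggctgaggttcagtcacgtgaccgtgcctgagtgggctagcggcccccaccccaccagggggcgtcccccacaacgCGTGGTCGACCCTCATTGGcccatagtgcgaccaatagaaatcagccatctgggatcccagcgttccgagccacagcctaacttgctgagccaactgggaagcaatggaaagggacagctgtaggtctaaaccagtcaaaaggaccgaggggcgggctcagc
Creld2: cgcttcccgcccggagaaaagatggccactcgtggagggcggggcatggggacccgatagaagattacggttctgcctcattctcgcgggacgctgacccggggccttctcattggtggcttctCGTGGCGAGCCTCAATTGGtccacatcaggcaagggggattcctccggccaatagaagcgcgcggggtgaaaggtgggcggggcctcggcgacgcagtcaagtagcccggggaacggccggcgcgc
Hspa1a: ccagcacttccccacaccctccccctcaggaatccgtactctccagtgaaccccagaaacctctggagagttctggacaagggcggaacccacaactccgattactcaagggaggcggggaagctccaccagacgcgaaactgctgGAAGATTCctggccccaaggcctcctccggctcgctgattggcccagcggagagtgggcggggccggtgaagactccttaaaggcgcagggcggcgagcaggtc
Both matches of the ER element read on the strand opposite to the gene. That of Creld2 lies 126 to 108 bases before the start, and that of Calr lies 162 to 144 bases before its start.

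**Figure D4:**
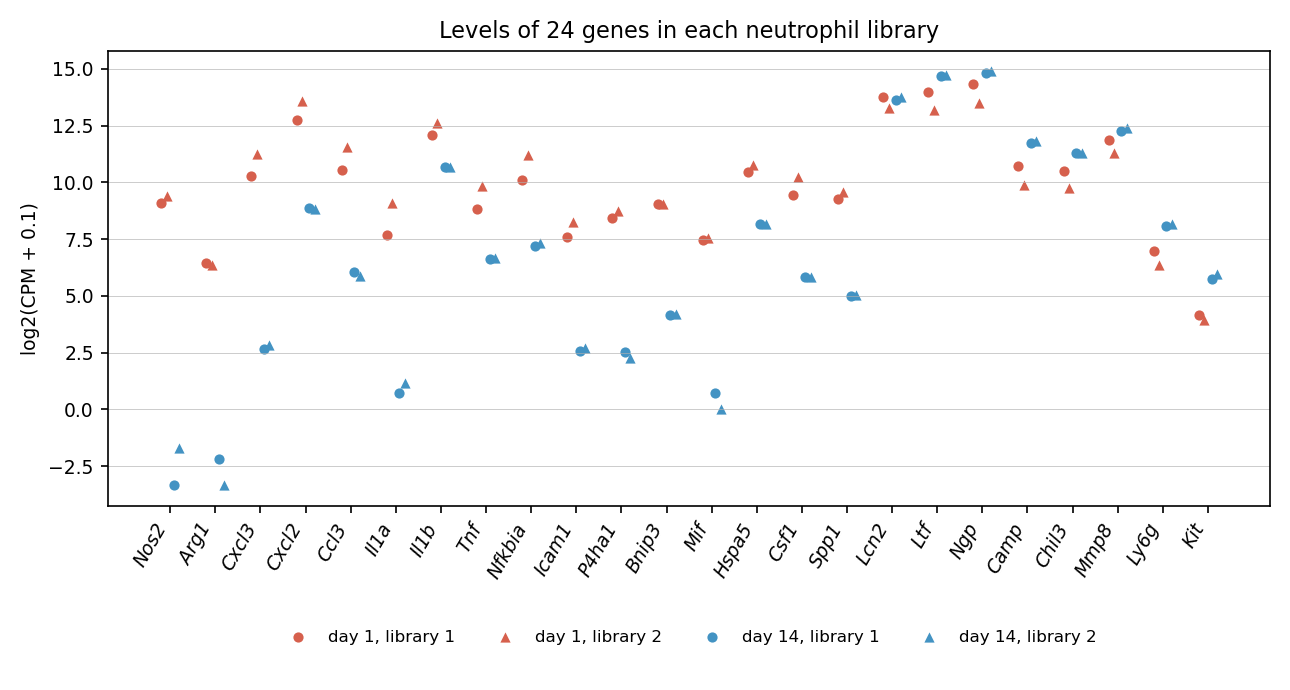
Level of 24 genes in each of the 4 neutrophil libraries (vertical axis, log2(CPM + 0.1)), with day 1 in red, day 14 in blue, circles for library 1 and triangles for library 2. From Nos2 to Spp1 the 2 red points lie above the 2 blue points, at distances from Il1b (-1.68 on the log2 scale) to Nos2, which had 2 reads on day 14; from Ltf to Kit the blue points are above, though Ltf, Ngp and Mmp8 were not called with all 16 libraries in the fit, and those of Lcn2 overlap.

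Granule genes were counted by kind of granule, and a difference between the kinds was not tested. Of the 18 secondary granule genes tested, 17 had a fold change above 0 (median 0.81), 7 had an adjusted p under 0.05, all of these higher on day 14, and 2 passed the fold threshold too, against 3.15% higher among all genes. Camp, the cathelicidin precursor, had 1699 and 941 CPM on day 1 and 3361 and 3599 CPM on day 14 (log2 fold change 1.40 ± 0.36, adjusted p = 0.00859). Chil3, a chitinase-like lectin, had 1468 and 856 CPM on day 1 and 2495 and 2509 CPM on day 14 (log2 fold change 1.11 ± 0.25, adjusted p = 0.00408). These were the 2 called members. Ltf, lactoferrin, had 16189 and 9418 CPM on day 1 and 26259.7 and 27174 CPM on day 14 (log2 fold change 1.06 ± 0.51, adjusted p = 0.135). Ltf was called where only the 4 neutrophil libraries were fitted (1.04, adjusted p = 0.029). Ngp, neutrophilic granule protein, had 20549 and 11635 CPM on day 1 and 29062 and 30183 CPM on day 14 (log2 fold change 0.88 ± 0.49, adjusted p = 0.199). Both libraries of day 14 were above both of day 1 in these 4 genes, but the 2 libraries of day 1 differed from each other by 1.81 times in Camp and 1.77 times in Ngp. The count rests on which day 1 library is used, being 7 without library 1 and 0 without library 2 (log2 fold changes of 1.03 for Camp and 0.77 for Chil3), and it was 1 without library 2 of day 14, where Camp was no longer called (1.35). Lcn2, lipocalin-2, had 14012 and 9922 CPM on day 1 and 12613 and 13658 CPM on day 14, with overlapping days.

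Among primary granule genes 4 of 11 tested were lower and 1 was higher, against 10.9% and 3.15% of all genes. Prtn3, proteinase 3, had 19.05 and 9.39 CPM on day 1 and 8.55 and 4.22 CPM on day 14 (log2 fold change -1.18 ± 0.37, adjusted p = 0.0282). Ctsg, cathepsin G, had 8.62 and 4.65 CPM on day 1 and 3.73 and 1.03 CPM on day 14 (log2 fold change -1.53 ± 0.48, adjusted p = 0.0275). Ctsc, the protease that activates both, had 119 and 105 CPM on day 1 and 18.1 and 12.8 CPM on day 14 (log2 fold change -2.87 ± 0.19, adjusted p = 4.67e-08). The days were well apart in Ctsc, while Prtn3 and Ctsg were no longer called without library 1 of day 1 (log2 fold changes of -0.57 and -1.01) or without library 2 of day 14 (-0.74 and -0.84). With only the 4 neutrophil libraries in the fit neither was called (adjusted p = 0.0933 and 0.106). Calr, the fourth, is an ER chaperone and was counted above. Mpo, myeloperoxidase, had 114 and 53.7 CPM on day 1 and 74.2 and 44.6 CPM on day 14, and Elane, neutrophil elastase, had 39.5 and 19.7 CPM on day 1 and 26.9 and 11.8 CPM on day 14, both with overlapping days. Fcnb, ficolin-B, which is made by precursors, had 87.9 and 52.4 CPM on day 1 and 179.8 and 172 CPM on day 14 (log2 fold change 1.33 ± 0.35, adjusted p = 0.00981), and fell just under the threshold without library 2 of day 1. Of 12 tertiary granule and secretory vesicle genes, 10 were not called, among them Mmp9 (gelatinase B) with 6048 and 4130.4 CPM on day 1 and 6076 and 6430.2 CPM on day 14. The other 2, Cd93 and Ctss (cathepsin S), were lower, with log2 fold changes of -1.15 ± 0.17 and -2.61 ± 0.25 (adjusted p = 0.000181 and 2.16e-06). They made up 16.7% of the list, near the 10.9% of all genes.

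In the list of precursor genes 4 of 21 members were higher (Camp, Chil3, Fcnb and Kit) and 3 lower (Cd34, Ctsg and Prtn3). Among all genes 3.15% were higher and 10.9% lower, so the share of decreases (14.3%) was close to that of all genes. Some of these members, such as Camp and Chil3, were already counted above as granule genes. Without library 1 of day 1 the counts were 6 and 1, and without library 2, 1 and 3. Kit, the receptor for stem cell factor, had 17.7 and 15.2 CPM on day 1 and 53.96 and 61.95 CPM on day 14 (log2 fold change 1.82 ± 0.43, adjusted p = 0.00514), although c-kit was among the lineage markers the sort removed. Cd34, another antigen of the lineage panel, had 5.40 and 3.16 CPM on day 1 and no read on day 14, and was at least 12.8-fold lower. Among 23 transcription factors of granulopoiesis 3 were higher (Gfi1, Klf5 and Myb) and 4 lower (Irf5, Irf8, Id1 and Runx3), against 3.15% and 10.9% of all genes, with 1 higher without library 1 of day 14. The call of Klf5 was lost without any 1 of the 4 libraries (0.90 to 1.16), with DESeq2 (adjusted p = 0.206) and with scaling by library size only (adjusted p = 0.0508). That of Id1 was lost without library 2 of day 1 (-1.24) or either library of day 14 (-1.31 and -1.22). Gfi1, a factor needed for neutrophil formation, had 8.92 and 7.55 CPM on day 1 and 26.02 and 23.1 CPM on day 14 (log2 fold change 1.57 ± 0.28, adjusted p = 0.00062). Myb, of early progenitors, had 39.4 and 34.8 CPM on day 1 and 80.7 and 72.4 CPM on day 14 (log2 fold change 1.04 ± 0.25, adjusted p = 0.00545). Myb lay close to the fold threshold and missed it without library 2 of day 1 (0.95) or library 1 of day 14 (0.96). Irf8, a factor of the monocyte lineage, had 12.3 and 10.2 CPM on day 1 and 4.94 and 2.47 CPM on day 14 (log2 fold change -1.63 ± 0.24, adjusted p = 0.000135). Irf5, a factor of inflammatory macrophages, had 116 and 124 CPM on day 1 and 27.5 and 30.7 CPM on day 14 (log2 fold change -2.04 ± 0.13, adjusted p = 4.01e-08). Spi1 (PU.1), which all myeloid cells need, had 649 and 605 CPM on day 1 and 683 and 684 CPM on day 14 and was not called.

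Of 48 cell cycle genes, none was called higher, yet 42 had a fold change above 0 (median 0.50) and 20 an adjusted p under 0.05 in that direction. Kif11, a mitotic motor, had 74.4 and 48.98 CPM on day 1 and 127 and 115 CPM on day 14 (log2 fold change 0.97 ± 0.17, adjusted p = 0.000666). Mki67 had 687 and 494 CPM on day 1 and 944 and 833 CPM on day 14 (log2 fold change 0.59 ± 0.21, adjusted p = 0.0487). With library 1 of day 1 left out, 14 were called higher, Kif11 among them (1.31), and with library 2 of day 14 left out, 4. Cdkn1a, the inhibitor p21, was the member called lower, with 237 and 286 CPM on day 1 and 13.97 and 13.6 CPM on day 14 (log2 fold change -4.24 ± 0.17, adjusted p = 5.77e-10). Replication-dependent histone genes, which cycling cells transcribe in S phase, were chosen after their values were seen. They were higher in 20 of 58 cases, against 3.15% of all genes (median 0.92, or 0.90 with 1 gene at its bound). The median of their mean change in the other populations was also 0.92. In the contrast against those populations, given below, 0 histone genes were called. Their copies are nearly identical, so single genes among them are uncertain. Hist1h4f had 14.3 and 10.8 CPM on day 1 and 59.98 and 43.3 CPM on day 14 (log2 fold change 2.03 ± 0.22, adjusted p = 6.69e-06).

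Among well-expressed genes (mean of 20 CPM or more) with days that did not overlap, the 12 largest increases were smaller than the largest decreases. Igkc, the constant region of the κ light chain of antibodies, had 1.20 and 6.32 CPM on day 1 and 35.8 and 28.5 CPM on day 14 (log2 fold change 3.14 ± 0.59, adjusted p = 0.00101). It is a B cell transcript. Of 6 B cell and plasma cell markers tested 3 were higher, against 3.15% of all genes. Besides Igkc these were Ighm and Jchain, which joins secreted antibodies. Jchain had 0.0750 and 1.05 CPM on day 1 and 10.2 and 10.3 CPM on day 14. The summed level of these markers was 52.1 and 55.9 CPM on day 1 and 153 and 159.8 CPM on day 14, and between 224 and 1792 CPM in the other populations, and the part of B cells in the value of Igkc was not tested. Zmpste24, the protease that matures lamin A, had 139 and 114 CPM on day 1 and 510.2 and 552 CPM on day 14 (log2 fold change 2.07 ± 0.21, adjusted p = 3.16e-06). Dmwd had 11.6 and 11.5 CPM on day 1 and 68.9 and 77.1 CPM on day 14 (log2 fold change 2.66 ± 0.38, adjusted p = 0.000174). Sntb1, a syntrophin that anchors membrane proteins to the cytoskeleton, had 9.22 and 10.01 CPM on day 1 and 41.9 and 44.97 CPM on day 14 (log2 fold change 2.18 ± 0.24, adjusted p = 8.38e-06). The 2 libraries of each day lay close together in these 3 genes. Tgm3, a transglutaminase, had 4.05 and 5.88 CPM on day 1 and 24.6 and 29.1 CPM on day 14 (log2 fold change 2.44 ± 0.51, adjusted p = 0.00242). Manea, an endomannosidase of the Golgi, had 19.1 and 16.2 CPM on day 1 and 63.7 and 69.3 CPM on day 14 (log2 fold change 1.91 ± 0.22, adjusted p = 1.33e-05). The others were Aldh3b3, Gm37589, Lmo1, Hist1h4f, Sema4f and Tex15, with log2 fold changes from 1.97 for Tex15 to 2.58 for Aldh3b3, and in each of the 12 both libraries of day 14 exceeded both of day 1. The call of Aldh3b3 was lost without any 1 of the 4 libraries (2.42 to 2.76), that of Sema4f without library 2 of day 1 (1.65) or either of day 14 (2.03), and that of Gm37589 without library 1 of day 1 (2.08) or of day 14 (1.87).

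Receptors that guide and sustain neutrophils were lower in 8 of 34 cases, against 10.9% of all genes, and higher in none. Csf2rb, the shared signalling chain for GM-CSF, had 1056 and 1057 CPM on day 1 and 543 and 488 CPM on day 14 (log2 fold change -1.04 ± 0.13, adjusted p = 2.68e-05). Ptafr, the receptor for platelet-activating factor, had 454 and 497 CPM on day 1 and 159 and 159 CPM on day 14 (log2 fold change -1.58 ± 0.16, adjusted p = 3.45e-06). Csf2rb lay at the fold threshold and missed it without library 2 of day 14 (-0.96). Cxcr4, which holds neutrophils in the bone marrow, had 554 and 501 CPM on day 1 and 461 and 467 CPM on day 14, and did not pass both thresholds. Cxcr2 had 1869 and 1397 CPM on day 1 and 941 and 1009 CPM on day 14 (log2 fold change -0.74 ± 0.36, adjusted p = 0.144).

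In the list of survival genes 9 of 25 were lower, against 10.9% of all genes. With a mean of 3 CPM required on both days, 5 were. The 9 included genes that block apoptosis and genes that promote it. Bcl2l1 (BCL-XL), which prevents apoptosis, had 272 and 300.0 CPM on day 1 and 51.1 and 53.5 CPM on day 14 (log2 fold change -2.45 ± 0.19, adjusted p = 2.72e-07). Bcl2l11 (BIM), which promotes it, had 216 and 394 CPM on day 1 and 79.9 and 73.3 CPM on day 14 (log2 fold change -1.99 ± 0.26, adjusted p = 4.23e-05). Mcl1, on which neutrophil survival is known to depend, had 2491 and 3491 CPM on day 1 and 1981 and 1909 CPM on day 14 and stayed under the fold threshold (log2 fold change -0.62 ± 0.15, adjusted p = 0.00688). Of the oxidant response, 8 of 25 were lower and none was higher, although 2 were higher without library 1 of day 1 and 1 without library 1 of day 14. Among all genes 10.9% were lower and 3.15% higher. Hmox1, heme oxygenase 1, had 444 and 524 CPM on day 1 and 40.95 and 43.02 CPM on day 14 (log2 fold change -3.53 ± 0.31, adjusted p = 8.85e-07). Fth1, the ferritin heavy chain, which stores iron, had 4889.7 and 7634 CPM on day 1 and 2147 and 2092 CPM on day 14 (log2 fold change -1.56 ± 0.22, adjusted p = 7.5e-05). Cybb, the catalytic subunit of the NADPH oxidase, had 2462 and 1587 CPM on day 1 and 3544 and 3797 CPM on day 14, above day 1 in both libraries and under the threshold (log2 fold change 0.86 ± 0.21, adjusted p = 0.00604), which it passed without library 1 of day 1 (1.21).

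Of 25 genes of late maturation and ageing, 12 were lower, against 10.9% of all genes, and none was higher (median -1.03). The list shares Icam1, Il1b and other inflammatory genes with those above. Of 18 S100 proteins and cytosolic antimicrobial factors, 2 were lower, S100a10 and Wfdc17, a share close to the 10.9% of all genes. S100a10, a partner of annexin A2, had 20.5 and 8.86 CPM on day 1 and 2.53 and 0.926 CPM on day 14 (log2 fold change -3.13 ± 0.41, adjusted p = 4.72e-05). Wfdc17, a protease inhibitor homologue, had 166 and 115 CPM on day 1 and 15.1 and 12.1 CPM on day 14 (log2 fold change -3.37 ± 0.27, adjusted p = 3.78e-07). Of 39 cytoskeleton and migration genes, 6 were lower (15.4%), a share near the 10.9% of all genes. Lmna, lamin A and C, which stiffens the nucleus, had 26.6 and 43.5 CPM on day 1 and 2.89 and 2.68 CPM on day 14 (log2 fold change -3.65 ± 0.40, adjusted p = 7.77e-06). Itga5, the fibronectin receptor subunit, had 176 and 281 CPM on day 1 and 10.5 and 11.7 CPM on day 14 (log2 fold change -4.36 ± 0.27, adjusted p = 2.93e-08).

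Interferon-stimulated genes were lower in 11 of 44 cases, against 10.9% of all genes, and higher in none (median -0.62). Isg15, a ubiquitin-like modifier, had 29.1 and 21.3 CPM on day 1 and 9.88 and 6.79 CPM on day 14 (log2 fold change -1.60 ± 0.39, adjusted p = 0.0068), and was no longer called without library 2 of day 14 (-1.35). Ifitm1, a membrane protein that restricts virus entry, had 377 and 313 CPM on day 1 and 54.7 and 53.8 CPM on day 14 (log2 fold change -2.67 ± 0.24, adjusted p = 1.11e-06). The count was 4 without library 1 of day 1, 5 without library 1 of day 14 and 3 without library 2 of day 14, which is close to the share of all genes. The letters GAAANNGAAA of the interferon-stimulated response element stood, on either strand, in 19 of 36 promoters against 2.93% of all, and 6 of these 19 genes were lower.

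Markers of other cells moved with the days. The counts of this paragraph stand beside 10.9% of all genes lower and 3.15% higher. For eosinophil, basophil and mast cell markers the lower share, 14.3%, was close to that of all genes. Of 18 monocyte and macrophage markers, 12 were lower on day 14 and none was higher (median -1.93, or -1.82 with Cd163 at its bound), and 5 were where a mean of 3 CPM was required on both days. Their summed level was 1231 and 1013 CPM on day 1 and 607 and 624 CPM on day 14, and between 863 and 6030.0 CPM in the 12 libraries of the other populations. Csf1r had 365 and 382 CPM on day 1 and 113 and 113 CPM on day 14 (log2 fold change -1.72 ± 0.19, adjusted p = 1.12e-05). Adgre1 (F4/80) had 41.3 and 43.6 CPM on day 1 and 20.2 and 23.98 CPM on day 14, and passed the thresholds without library 2 of day 14 only (-1.07). C1qb, a complement subunit of macrophages, had 9.45 and 5.35 CPM on day 1 and 1.45 and 0.309 CPM on day 14, and was called with all libraries and not without library 2 of day 14 (-2.36). Of class II genes, 6 of 12 were lower and 1, H2-DMb2, was higher with all libraries and not without library 2 of either day. Cd74, the invariant chain, had 84.7 and 59.8 CPM on day 1 and 29.3 and 26.6 CPM on day 14 (log2 fold change -1.37 ± 0.17, adjusted p = 2.95e-05). The part of these cells in the decreases given above was not tested. Of 14 eosinophil, basophil and mast cell markers 4 were higher (Prg2, Epx, Ear1 and Ear2) and 2 lower (Siglecf and Ccr3), or 2 and 1 without library 2 of day 1 and 3 and 1 without library 2 of day 14. The calls of Ear1 and Ccr3 were lost without library 2 of day 1 (2.19 and -1.74) or either library of day 14, and that of Epx without library 2 of day 1 (3.62). Prg2, eosinophil major basic protein, had 0.825 and 2.90 CPM on day 1 and 16.3 and 13.7 CPM on day 14 (log2 fold change 3.05 ± 0.71, adjusted p = 0.00502), a call lost without library 1 of day 1 (2.37). Siglecf, the eosinophil surface lectin, had 44.8 and 40.7 CPM on day 1 and 13.5 and 14.6 CPM on day 14 (log2 fold change -1.60 ± 0.28, adjusted p = 0.000511). Summed eosinophil, basophil and mast cell markers had 77.1 and 70.7 CPM on day 1 and 96.1 and 96.9 CPM on day 14. They reached up to 11920.0 CPM in the other populations. No T cell, NK cell, red cell or stromal marker was called, among 3, 6 and 10 tested. Platelet markers were lower in 2 of 6 cases (Pf4 and Vwf), and dendritic cell markers were lower in 1 (Itgax) and higher in 1 (Clec9a) of 7, where 10.9% of all genes were lower and 3.15% higher. The call of Clec9a was lost without any 1 of the 4 libraries (1.64 to 2.64), and that of Pf4 without library 2 of day 1 (-2.90) or of day 14 (-2.01) and with libraries thinned to equal totals. That of Vwf was lost without either library of day 1 (-1.88 and -1.81) or library 2 of day 14 (-1.09), with thinning, with scaling by library size only and with only the 4 neutrophil libraries.

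Ribosomal protein genes were mostly not called, with 1 of 73 called lower (Rpl22, not without library 1 of day 1, -0.94) and a median of -0.21. Of 36 genes of ribosome assembly and translation, 6 were lower, among them Npm1, nucleophosmin (log2 fold change -1.07 ± 0.18, adjusted p = 0.00036), and 1 was higher (Polr1a), against 10.9% and 3.15% of all genes. Npm1 missed the fold threshold without library 1 of day 1 (-0.90) or library 2 of day 14 (-0.85). Of 26 lipid synthesis genes, 1 was lower (Srebf1), fewer than the 10.9% of all genes. Srebf1 lay at the threshold, and its call was lost without any 1 of the 4 libraries (-1.09 to -0.97), with DESeq2, with either other scaling and without a filter on CPM.

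Whether the change over time was the same in the other sorted populations was asked with a contrast of the neutrophil change against the mean of the 3 other changes. It was called, at the same thresholds, for 1019 genes (8.49%), of which 858 (7.15%) had the more negative change in neutrophils and 161 (1.34%) the more positive one. Without library 2 of day 14 it was called for 672. Hypoxia and glycolysis genes had 21 of 38 members with the more negative change in neutrophils, and between 20 and 21 when any 1 neutrophil library was left out. Their median change was -0.80 in the mean of the other populations, against -1.95 in neutrophils. P4ha1 changed by -6.22 in neutrophils and by -1.28 in the others (difference -4.94 ± 0.25, adjusted p = 4.03e-08), and Kdm3a, a histone demethylase induced by hypoxia, by -2.35 and 0.04 (difference -2.39 ± 0.16, adjusted p = 2.24e-07). Aldoa and Gapdh changed by -1.61 and -1.18 in neutrophils and by -1.06 and -0.89 in the others, and their differences were not called.

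Of the NF-κB genes, 19 of 31 had the more negative change in neutrophils (between 16 and 20 with 1 neutrophil library left out), as did 14 of 26 AP-1 and EGR genes. Tnfaip3 changed by -3.17 in neutrophils and 0.95 in the others (difference -4.12 ± 0.32, adjusted p = 9.47e-07), and Jun by -2.82 and 0.37 (difference -3.19 ± 0.24, adjusted p = 6.76e-07). Socs3, the feedback inhibitor of cytokine receptors, fell in each of the 4 populations, with changes of -2.07 in neutrophils and -2.94 in the mean of the others, and the difference was not called. Of the chemokines, 7 of 18 had the more negative change in neutrophils. Ccl3 and Ccl4 changed by -5.18 and -4.65 in neutrophils and by 0.08 and -0.17 in the others (difference -5.26 ± 0.31, adjusted p = 5.25e-08, and difference -4.48 ± 0.33, adjusted p = 6.56e-07). In the other populations Ccl3 lay between 117 and 497 CPM on day 1 and between 102 and 491 CPM on day 14. Cxcl3 fell in each of the 4 populations, with changes of -8.11 in neutrophils and -6.62 in the mean of the others (difference -1.49 ± 0.79, adjusted p = 0.231). Nos2, Arg1 and Il1b likewise fell in each of the 4 populations, and their differences were not called.

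Genes with the more positive change in neutrophils included 4 of 18 secondary granule genes (Mmp8, Lcn2, Chil3 and Abca13), against 1.34% of all genes, or 5 without library 1 of day 1 and 2 without library 2 of day 1 or either library of day 14. Mmp8, neutrophil collagenase, changed by 0.73 in neutrophils and -1.54 in the others (difference 2.27 ± 0.31, adjusted p = 0.000142). Adam8, a surface metalloprotease, changed by 0.21 and -2.19 (difference 2.40 ± 0.24, adjusted p = 8.83e-06), and Thbs1 by -0.13 and -2.69 (difference 2.56 ± 0.31, adjusted p = 4.67e-05). Mmp8 lay between 73.5 and 220.0 CPM on day 1 and between 17.9 and 163 CPM on day 14 in the libraries of the other populations, and the part of neutrophil transcripts in those libraries was not tested. Mmp8 was lower on day 14 in each of the other populations, but their mean hides differences for Lcn2, Chil3 and Abca13. In CX3CR1+ macrophages Lcn2 fell from 430 and 385 to 38.5 and 43.9 CPM, and Abca13 from 26.6 and 26.4 to 8.37 and 10.1 CPM. In CD9+ macrophages the days of Lcn2, Chil3 and Abca13 overlapped. In the myeloid cells that were not macrophages Chil3 rose from 1944 and 1709 to 2263 and 2408 CPM. There Lcn2 and Abca13 fell by less than in CX3CR1+ macrophages.

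**Figure D5:**
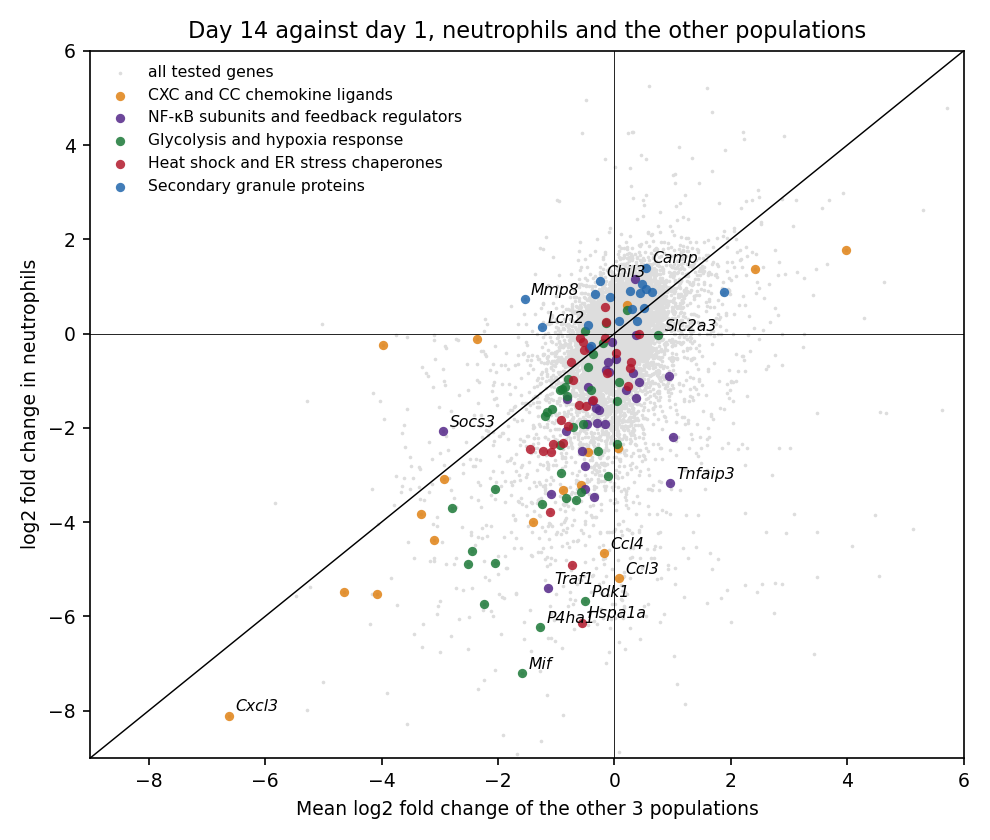
Log2 fold change between day 14 and day 1 in neutrophils (vertical axis) against the mean of the log2 fold changes of the other 3 populations (horizontal axis), with all tested genes in grey and 5 lists in colour; the diagonal marks equal change and genes outside the axes are not drawn. Most coloured points of the hypoxia, NF-κB and chaperone lists lie below the diagonal, Ccl3 among them at 0.08 on the horizontal and -5.18 on the vertical axis, while Mmp8 and Lcn2 lie above it and Cxcl3 is low on both axes.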

How the data were processed

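RNA of sorted cells was made into libraries with a stranded SMART-Seq kit and sequenced in pairs. Per the labels and the study's methods, the authors trimmed reads with Cutadapt, aligned them with STAR to mm10, and deposited raw counts per Gencode gene, which were used as deposited for 20200 genes. Groups came from the sample labels. Titles number the libraries of each population 1 and 2 on each day. Whether libraries of a day with the same number share mice is not stated in the titles. The fit took all 16 libraries as independent. Genes that reached a mean of 3 CPM in 1 or more of the 8 groups were kept (11998), scaled by TMM, and fitted with 1 mean per group over all 16 libraries by the quasi-likelihood test of edgeR 4.0.16 in R 4.3.3, the common biological coefficient of variation being 0.178. A call needed a p under 0.05, adjusted by the Benjamini-Hochberg method over these genes, and a log2 fold change of 1 or more in size. With 2 libraries against 2, an exact permutation test of a single gene cannot go below p = 0.333, so the calls rest on the spread shared across genes and groups. On counts simulated from these libraries, the script was tested before use.

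Named genes were the 12 largest increases and decreases among called genes with a mean CPM of at least 20 in the higher day and days that did not overlap, the 6 largest differences each way from the other populations under the same limit on CPM, the genes of the sort, and members of gene lists. The gene lists and the comparison were chosen with earlier results of these data known, and names outside the rule after their values were seen. Ratios against groups with 1 to 6 reads carry exact 95% intervals, folds against groups at 0 use a floor of 3 counts per library, and both cover counting error only. Motifs were searched separately on both strands. Alternatives were DESeq2 1.42.0, other scalings, filters, thresholds and samples, a replicate block, thinning to equal totals and leaving out each neutrophil library. Some genes of the lists are not reported here.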

Additional observations from a re-analysis of the deposited data

Results flagged for a closer look

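The contrast of the neutrophil change against the mean change of the other populations was called for 1019 genes, which is a tested difference between groups. By list, the members with the more negative change in neutrophils numbered 19 of 31 in the NF-κB list, 14 of 26 in the AP-1, EGR and ATF list, 21 of 38 in the hypoxia and glycolysis list and 11 of 27 in the chaperone list, against 7.15% of all genes.

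Of well-expressed genes, the 6 most negative differences on the log2 scale were those of Gpc3 (-12.5), Il23a (-6.51), E230032D23Rik (-5.82), Mif (-5.62), Hspa1a (-5.57) and Ppp1r13l (-5.44). The value of Gpc3 was fitted against day 14 libraries without a read and is no measure of size. In the other populations Il23a had at most 2.76 CPM and E230032D23Rik at most 3.10 CPM. The changes of the others in these genes therefore rest on low levels. Ppp1r13l, an inhibitor of p53 and of NF-κB, had 57.7 and 78.5 CPM on day 1 and 1.32 and 1.54 CPM on day 14, a change of -5.55 against -0.11 in the others (adjusted p = 3.98e-06, edgeR). E230032D23Rik is annotated as an antisense transcript, whose reads can be told apart from those of its partner only where counting used the strand, and had 20.02 and 37.8 CPM on day 1 and 1.32 and 0.617 CPM on day 14.

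The 6 most positive differences were those of AA467197 (2.96), Nt5e (2.88), Igkc (2.86), B230303A05Rik (2.61), Snai1 (2.59) and Thbs1 (2.56). Nt5e (CD73), the enzyme that makes adenosine from AMP, had 498 and 697 CPM on day 1 and 259 and 237 CPM on day 14, and changed by -1.27 in neutrophils and -4.15 in the others (adjusted p = 6.78e-05, edgeR). Snai1, a transcriptional repressor of cell adhesion genes, had 45.8 and 38.8 CPM on day 1 and 24.5 and 27.4 CPM on day 14, with changes of -0.71 and -3.30 (adjusted p = 0.00589, edgeR). AA467197 had 58.9 and 49.9 CPM on day 1 and 41.7 and 57.2 CPM on day 14, with changes of -0.14 and -3.10. In CX3CR1+ macrophages of day 14 AA467197 had 0 and 0.0928 CPM, and B230303A05Rik had no read. For both genes the mean change of the others thus rests in part on a fit against few or no reads and is no measure of size. In all but Igkc, the change in neutrophils was smaller in size than the mean change of the others.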

How the results depend on the processing

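With the fold threshold dropped, 3318 genes were called between the days and 1771 in the contrast against the other populations, in place of 1689 and 1019. With a mean of 3 CPM required on both days, 882 were called, since genes that had fallen to near 0 were then not tested. The other settings with all neutrophil libraries gave between 1416 and 1776 genes, the latter with DESeq2. Leaving out 1 neutrophil library gave between 1212 and 1835 genes between the days and between 672 and 1237 in the contrast, both lowest without library 2 of day 14. Without library 1 of day 1 the higher genes numbered 543 in place of 378. A single library left in a day was assumed to vary like the other groups.

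With the replicate block 1696 genes were called, 1656 of them the same, and 1044 in the contrast. The deviations of same-numbered libraries from their day's mean correlated at r = 0.0148, so the numbers are used as names only. The block over the 4 neutrophil libraries alone, chosen after seeing the data, gave 1532.

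Of 2281 fold changes of 166 named genes under 14 settings, 2159 kept their direction and side of the threshold, 78 no longer passed, 30 newly passed and 14 reversed. The reversals were in genes not called with all libraries. Over the fits that left out 1 neutrophil library their log2 fold changes ran from -0.39 to 0.071 for AA467197, from -5.96 to 0.30 for Cd163, from -0.76 to 2.78 for Cebpb, from -0.31 to 0.17 for Hsp90ab1, from -0.43 to 0.14 for Hspa8, from -0.10 to 0.34 for Itgam, from -0.10 to 0.41 for Lcn2, from -0.98 to 0.41 for Malat1, from -0.94 to 0.14 for Mpo, from -1.23 to 1.18 for Neat1, from -0.087 to 0.0091 for Slc2a3 and from -0.29 to 0.043 for Thbs1. Slc2a3 also reversed without a filter on CPM, at 0.013. Depth limits genes under about 3 CPM, and in genes with few reads on day 14 the ratio is set by counting error.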

Other observations

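A pair of nuclear long noncoding RNAs also differed between the libraries of day 1. Malat1 had 5664 and 14852 CPM on day 1 and 8269.5 and 6781 CPM on day 14, and Neat1, the scaffold of paraspeckles, had 443 and 2357 CPM on day 1 and 1130.4 and 877 CPM on day 14. In both, library 2 of day 1 was the highest of the 4 libraries and library 1 of day 1 the lowest. S100a4 was listed at 0 in all 4 neutrophil libraries.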
